A study of Mus musculus with 12 samples.

Results

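The liver X receptors and the genes through which they clear cholesterol were examined in RNA libraries labelled as tumor-associated macrophages (TAMs). The set held 9 genes chosen by symbol, namely the receptors Nr1h2 and Nr1h3 and the genes Abca1, Abcg1, Apoe, Apoc2, Mylip, Pltp and Lpcat3. All 9 were found among the 55202 genes of the count table and among the 37140 named genes of the table that holds the authors' comparison. The 12 libraries were 6 labelled DMBA3-4 TAM and 6 labelled DMSO3-1 TAM, from cells sorted as CD45+ CD11b+ F4/80+ out of tumors in Rag1-/- mice on the C57BL/6 background, whose lymphocytes of the T and B lineages do not mature. The DMBA3-4 cells descend from one sorted cell of an mCherry- and luciferase-labelled PyMt mammary tumor line, itself derived from an MMTV-PyMt transgenic mouse, that was exposed in culture to the carcinogen 7,12-dimethylbenz[a]anthracene (DMBA) dissolved in DMSO. DMSO3-1 is a clone of the same line that received DMSO alone. The exposure was thus given to the cancer cells before injection into female mice, and each arm rests on 1 clone, so that carcinogen exposure and clone cannot be told apart. The sources do not give the age of the mice. Whether the libraries of a group come from different mice is not stated in the labels or the methods. The p-values below therefore cover the spread among libraries, part of which may be technical, and n counts libraries. By a chi-square of counts averaged over genes, which grows as libraries differ, some pairs were close. They were DMBA3-4 replicates 2 and 3 (2.56) and 1 and 4 (4.95), against up to 20.4 in that group. In DMSO3-1 they were replicates 2 and 4 (3.85) and 1 and 6 (4.55), against up to 30.5. Whether close pairs share a mouse is not known.

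The liver X receptors are nuclear receptors that are switched on by oxysterols and by late intermediates of cholesterol synthesis. As heterodimers with a retinoid X receptor (RXR) they bind DR4 elements, which are direct repeats of a short half-site with a gap of 4 bases, and raise transcription of genes that load cholesterol onto lipoproteins, pass lipids between lipoproteins, and lower the uptake of lipoproteins. In macrophages this programme is known for protecting cells that have taken up cholesterol-rich material, and it is opposed by SREBP2, the transcription factor that turns on sterol synthesis and uptake when sterols are scarce. A microRNA in an intron of the SREBP2 gene, miR-33, is known to repress the cholesterol exporters.

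The libraries held 3043334 to 4637433 counts in the DMBA3-4 group and 2754820 to 3982916 in the DMSO3-1 group. Macrophage transcripts were scarce in them. Ptprc (CD45) had 0 to 7 counts per library, and Itgam (CD11b) and Adgre1 (F4/80) had 0 to 3 each, so the libraries are named as labelled. A list of 20 macrophage markers, none of them at 0 in every library, took 0.00819% to 0.0128% of counts in the DMBA3-4 group and 0.00688% to 0.00985% in the DMSO3-1 group, against 5.6% of the authors' mean counts. The 8 epithelial markers took 0.152% to 0.215% and 0.102% to 0.176% of counts in the same order, with Epcam at 0 in all 12 libraries, and the 10 fibroblast markers took 0.114% to 0.199% and 0.176% to 0.239%. In the authors' mean the epithelial and fibroblast markers took 0.00394% and 0.00357%, far below their shares in the count table. Krt8, an epithelial keratin, had 1211 to 4118 counts per library and stood at 3.34 in the authors' mean scaled to a total of 1000000. DMBA3-4 replicate 5 stood apart from its group on the first principal component (-32.4, against -70.0 to -47.3) and on the second (-16.8, against 3.29 to 7.2). DMSO3-1 replicates 1 and 6 stood apart on the second (-35.5 and -36.9, against -5.33 to 23.8) and on the first (40.6 and 41.0, against 61.9 to 69.2). The part of these differences in the results below was not tested.

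Stretches that resemble the motifs through which the sterol receptors and miR-33 are known to act are shown first. RefSeq gave a promoter window, from 250 bases before to 50 bases after the start of transcription on GRCm38.p6, for 8 of the 9 genes, with no entry for Abcg1. Each window was searched on both strands for the half-site AGGTCA repeated after a gap of 4 bases, and the match with the fewest mismatches over its 12 half-site bases was kept. Abca1 had the closest match of the set, with 3 mismatches, on the strand opposite to transcription and starting 67 bases before the start site. Of the 27025 genes with a promoter window, 24.5% held a match at least as close, so the match is a description of the sequence. The Abca1 window lies on the minus strand of chromosome 4, from 53159846 to 53160145, and its half-sites stand in capitals in the stretch printed here (chr4:53159937-53159972).
Abca1: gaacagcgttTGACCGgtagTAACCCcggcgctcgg

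The best match had 4 mismatches in Nr1h2, Nr1h3, Apoe, Apoc2 and Lpcat3, as close as in 79.3% of genes, and 5 in Mylip and Pltp, as close as in 99.8%. Apoe and Pltp were picked because they moved in opposite directions, and a link of direction to these sequences was not tested. The stretch of the Apoe promoter (chr7:19699156-19699191, minus strand) is shown beside that of Pltp (chr2:164857930-164857958, minus strand), with the half-sites of the best match in capitals.
Apoe: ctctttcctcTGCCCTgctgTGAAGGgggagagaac
Pltp: gtgAGGAAActgaGGCTCCgcagccaagt

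The mature miR-33-5p of the mouse has 21 bases and is encoded on the plus strand of chromosome 15 (chr15:82198127-82198147), inside Srebf2. Its seed, bases 2 to 8, is in capitals.
mmu-miR-33-5p: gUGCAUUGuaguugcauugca

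Matches to the seed, CAATGCA, were counted in the bases that follow the stop codon in GENCODE M21, using the transcript with the longest such stretch for each gene. Abca1 held 3 matches within 30 bases (chr4:53033783-53033812, minus strand) and Abcg1 held 2 within 25 bases (chr17:31114998-31115022, plus strand), with each match in capitals. In Abca1 the first and the second match overlap.
Abca1: tattCAATGCAATGCActtCAATGCAacga
Abcg1: aacgCAATGCAacgCAATGCAgaca

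The other 7 genes held none. Of 21022 genes with sequence after the stop codon, 7.12% had at least 1 match, 0.656% at least 2 and 0.0714% at least 3. A match is a stretch of letters and not a measured site.

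Between the groups, the lipid exporters Abca1 and Abcg1, the ubiquitin ligase gene Mylip and the lipoprotein Apoe were at higher levels in DMBA3-4 libraries, whereas the phospholipid transfer protein Pltp and the receptor Nr1h2 were at lower levels. Lpcat3 did not pass the test, Nr1h3 had too few counts to compare closely, and Apoc2 was not detected. In bulk libraries such as these, fewer cells of a type and less RNA per cell cannot be told apart. Levels are given as CPM, which are counts divided by the library size (scaled by TMM) and multiplied by 1000000, and genes were called at an adjusted p below 0.05 by edgeR's quasi-likelihood test over the 11511 genes that passed a filter on low counts. Of the 9 genes, 6 passed that filter, and 5 of these were called, 3 higher and 2 lower. Calls were frequent in these data, since edgeR called 60.1% of all tested genes, 29.9% as higher and 30.2% as lower in DMBA3-4. For 3 of the 6 tested genes every library of one group lay above every library of the other, as was true of 32.2% of all tested genes. The median log2 fold change was 0.38 over the 6 genes and 0.00 (0.0026) over all genes tested.

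**Figure D1:**
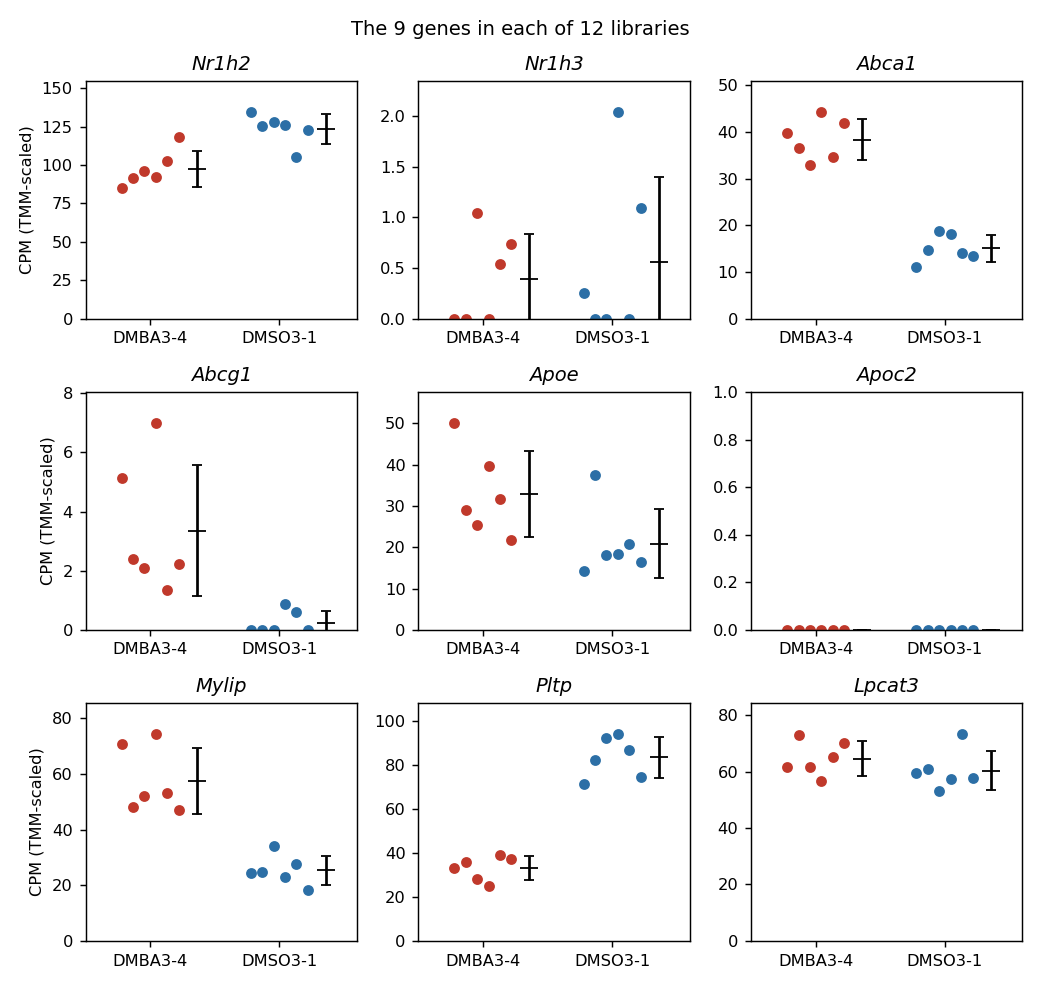
Level of each of the 9 genes (CPM scaled by TMM, linear axes from 0) in the 6 DMBA3-4 (red) and 6 DMSO3-1 (blue) libraries in the order of replicates 1 to 6, with the mean and SD in black. The groups do not overlap for Abca1, Abcg1, Mylip and Pltp, and Apoc2 is at 0 in all 12 libraries.

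Of the receptors, Nr1h2 encodes LXRβ, the form found in most tissues. Its levels were 85.3, 91.5, 96.3, 91.9, 103 and 118 CPM in DMBA3-4 replicates 1 to 6 and 135, 125, 128, 126, 105 and 123 CPM in DMSO3-1 replicates 1 to 6. Only DMBA3-4 replicate 6 lay within the DMSO3-1 range, in which replicate 5 was the lowest. The log2 fold change was -0.34 ± 0.10 (SE, n = 6 per group), with an adjusted p of 0.0104 in edgeR, and 69.2% of tested genes changed by more. This call was lost under 3 of the other ways of scaling and filtering, with adjusted p from edgeR of 0.0605 for upper-quartile scaling, 0.0501 for library totals and 0.12 without the filter.

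Nr1h3 encodes LXRα, the receptor best known from liver and macrophages. It had 0, 0, 5, 0, 2 and 3 counts in DMBA3-4 replicates 1 to 6 and 1, 0, 0, 7, 0 and 3 counts in DMSO3-1 replicates 1 to 6. There were 3 libraries at 0 in each group, and the highest library was at 1.05 CPM in DMBA3-4 and 2.04 CPM in DMSO3-1. The summed counts were 10 and 11, a ratio after scaling to library size of 0.778 with an exact 95% interval of 0.296 to 2.02 that covers counting error only. A difference was not detectable at this depth.

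Among the exporters, Abca1 moves cholesterol and phospholipid onto lipid-poor apolipoprotein A-I. It was at 39.8, 36.5, 32.9, 44.3, 34.5 and 42.0 CPM in DMBA3-4 replicates 1 to 6 and at 11, 14.8, 18.8, 18.1, 14.1 and 13.4 CPM in DMSO3-1 replicates 1 to 6. The lowest DMBA3-4 library lay above the highest DMSO3-1 library. The log2 fold change was 1.35 ± 0.16 (SE, n = 6 per group), a 2.55-fold higher level, with an adjusted p of 3.1e-06 in edgeR. For Abca1, 3 seed matches and a DR4-like stretch are printed above. Of genes with a promoter window, 24.5% held a DR4-like match at least as close. Abca1 spans chr4:53030787-53159895 on GRCm38.

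Abcg1 passes cholesterol to mature high-density lipoprotein and lies on chromosome 17. It had 21, 10, 10, 21, 5 and 9 counts in DMBA3-4 replicates 1 to 6 and 0, 0, 0, 3, 2 and 0 counts in DMSO3-1 replicates 1 to 6. All 6 DMBA3-4 libraries held reads and lay above every DMSO3-1 library, of which 4 were at 0. The summed counts were 76 and 5, a ratio after scaling to library size of 13.0 with an exact 95% interval of 5.34 to 41.2 that covers counting error only. The gene did not pass the filter for edgeR. By exact permutation of the group labels (two-sided, on log2(CPM + 1), 924 arrangements) its p was 0.00216, the smallest that 6 against 6 allows, and its adjusted p over 33387 genes was 0.0172. That test called 18.7% of those genes.

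Apoe encodes apolipoprotein E, which carries exported cholesterol and is the most abundant transcript of the set in the authors' mean. Its levels were 50.1, 29.1, 25.3, 39.6, 31.6 and 21.9 CPM in DMBA3-4 replicates 1 to 6 and 14.3, 37.5, 18.1, 18.3, 20.7 and 16.4 CPM in DMSO3-1 replicates 1 to 6. DMSO3-1 replicate 2 lay above 4 of the DMBA3-4 libraries, while the other 5 DMSO3-1 libraries lay below all of them. The log2 fold change was 0.65 ± 0.25 (SE, n = 6 per group), with an adjusted p of 0.0303 in edgeR. By exact permutation of the group labels Apoe had a p of 0.0303 but an adjusted p of 0.121, whereas Abca1, Mylip and Pltp had 0.0172 each and Nr1h2 0.0277. The edgeR call was lost when 1 of 6 libraries was left out in turn, namely DMBA3-4 replicate 1 or 4 (adjusted p from edgeR 0.0749 and 0.0599) or DMSO3-1 replicate 1, 3, 4 or 6 (0.0615, 0.053, 0.0609 and 0.0567). Without DMSO3-1 replicate 2 the log2 fold change was 0.90, with an adjusted p of 0.00229.

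Levels of complement C1q are given beside those of Apoe. The 3 genes of complement C1q, which macrophages are known to express strongly and which were chosen after their values were seen, had summed levels of 14.2, 8.36, 11.3, 11.7, 6.69 and 8.10 CPM in DMBA3-4 replicates 1 to 6 and 1.5, 6.04, 1.06, 1.75, 7.20 and 2.54 CPM in DMSO3-1 replicates 1 to 6. DMBA3-4 replicate 1, the highest for Apoe, was also the highest for C1q, and DMSO3-1 replicate 2 was the second highest of its group for C1q. DMSO3-1 replicate 5, the highest of its group for C1q, was at 20.7 CPM for Apoe. These levels rest on 25 to 58 counts per DMBA3-4 library and 3 to 24 per DMSO3-1 library. Of the 20 macrophage markers 7 were tested, of which C1qb and Ctss were called higher and Cx3cr1 lower in DMBA3-4, and 4 were not called. Their part in the Apoe difference was not tested.

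**Figure D2:**
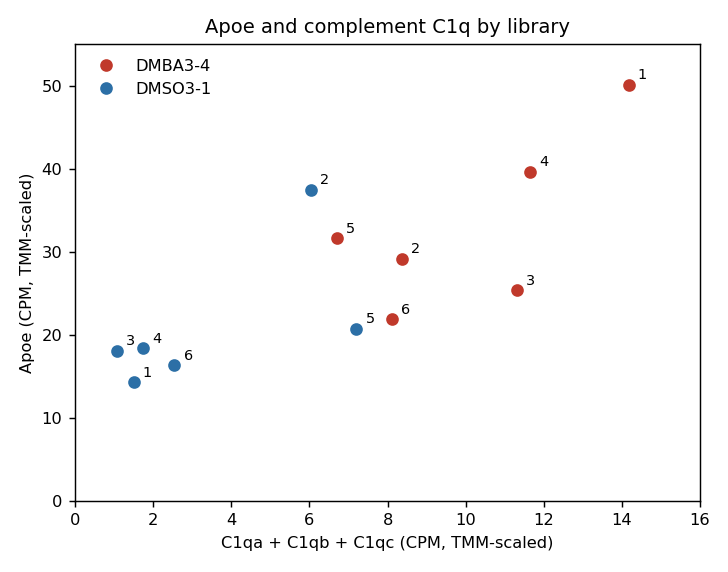
Level of Apoe (vertical axis) against the summed level of C1qa, C1qb and C1qc (horizontal axis), both in CPM scaled by TMM, with 1 point per library and the replicate number beside it (red, DMBA3-4; blue, DMSO3-1). DMBA3-4 replicate 1 is highest on both axes (14.2 and 50.1 CPM), and DMSO3-1 replicate 2 (6.04 and 37.5 CPM) lies apart from its group in Apoe.

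Apoc2 encodes the cofactor of lipoprotein lipase and lies on chromosome 7 beside Apoe. It had 0 counts in all 12 libraries, which allows a level of up to 0.648 to 1.09 CPM per library at 3 counts. Of the 9 neighbouring genes of this cluster 5 were tested. None was called higher and 3 were called lower, which were Clptm1 with a log2 fold change of -1.47, Relb with -0.62 and Tomm40 with -0.62 (adjusted p from edgeR 7.7e-04, 9.5e-04 and 0.0219). Over all tested genes, 29.9% were called higher and 30.2% lower. By exact permutation of the group labels the adjusted p was 0.064 for Clptm1, 0.0172 for Relb and 0.155 for Tomm40. Apoe, also on chromosome 7, was called higher by edgeR, and a difference from its neighbours was not tested.

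Mylip encodes IDOL, a ubiquitin ligase that sends lipoprotein receptors, the VLDL receptor among them, to the lysosome. It was at 70.8, 48.2, 52.1, 74.3, 53.0 and 46.9 CPM in DMBA3-4 replicates 1 to 6 and at 24.3, 24.8, 34.1, 23, 27.6 and 18.2 CPM in DMSO3-1 replicates 1 to 6. The groups did not overlap, and DMBA3-4 replicates 1 and 4 were the highest, as for Abcg1 and Apoe. The log2 fold change was 1.18 ± 0.17 (SE, n = 6 per group), with an adjusted p of 2.4e-05 in edgeR.

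Of the enzymes and carriers of phospholipid, Pltp encodes the protein that moves phospholipid between lipoproteins in plasma. Its levels were 33.2, 35.8, 28.1, 25.0, 39.1 and 37.3 CPM in DMBA3-4 replicates 1 to 6 and 71.4, 82.5, 92.2, 94.1, 87.0 and 74.5 CPM in DMSO3-1 replicates 1 to 6. The groups did not overlap, in the direction opposite to that of Abca1 and Mylip. The log2 fold change was -1.33 ± 0.13 (SE, n = 6 per group), a 2.52-fold higher level in DMSO3-1, with an adjusted p of 7.1e-07 in edgeR. Lbp, which encodes a lipid-binding protein of the same family and is also known as an LXR target, was called higher in DMBA3-4, with a log2 fold change of 0.58 (adjusted p 0.00623 in edgeR). Its groups overlapped (230.3 to 406.8 CPM in DMBA3-4 and 162.5 to 269.4 CPM in DMSO3-1). By exact permutation its adjusted p was 0.085. Of the 5 other family genes listed, it was the only 1 tested.

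Lpcat3 encodes an acyltransferase that places polyunsaturated fatty acids on membrane phospholipids. It was at 61.6, 73.1, 61.6, 56.6, 65.1 and 70.0 CPM in DMBA3-4 replicates 1 to 6 and at 59.4, 61.0, 53.2, 57.4, 73.2 and 57.8 CPM in DMSO3-1 replicates 1 to 6, and the groups overlapped over most of their range. The log2 fold change was 0.10 with a 95% interval of -0.14 to 0.34 and an adjusted p of 0.453 in edgeR. Of the 6 other lysophospholipid acyltransferases examined, 3 were called higher and 2 lower. Over all tested genes, 29.9% were called higher and 30.2% lower. The largest changes were in Mboat2 (log2 fold change 1.67), Lpcat4 (-1.23) and Lpcat1 (0.74), with adjusted p from edgeR of 1.5e-04, 0.00279 and 0.0143. Groups overlapped for Lpcat4 and Lpcat1 but not for Mboat2. By exact permutation the adjusted p was 0.0172 for Mboat2, 0.0552 for Lpcat4 and 0.064 for Lpcat1.

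**Figure D3:**
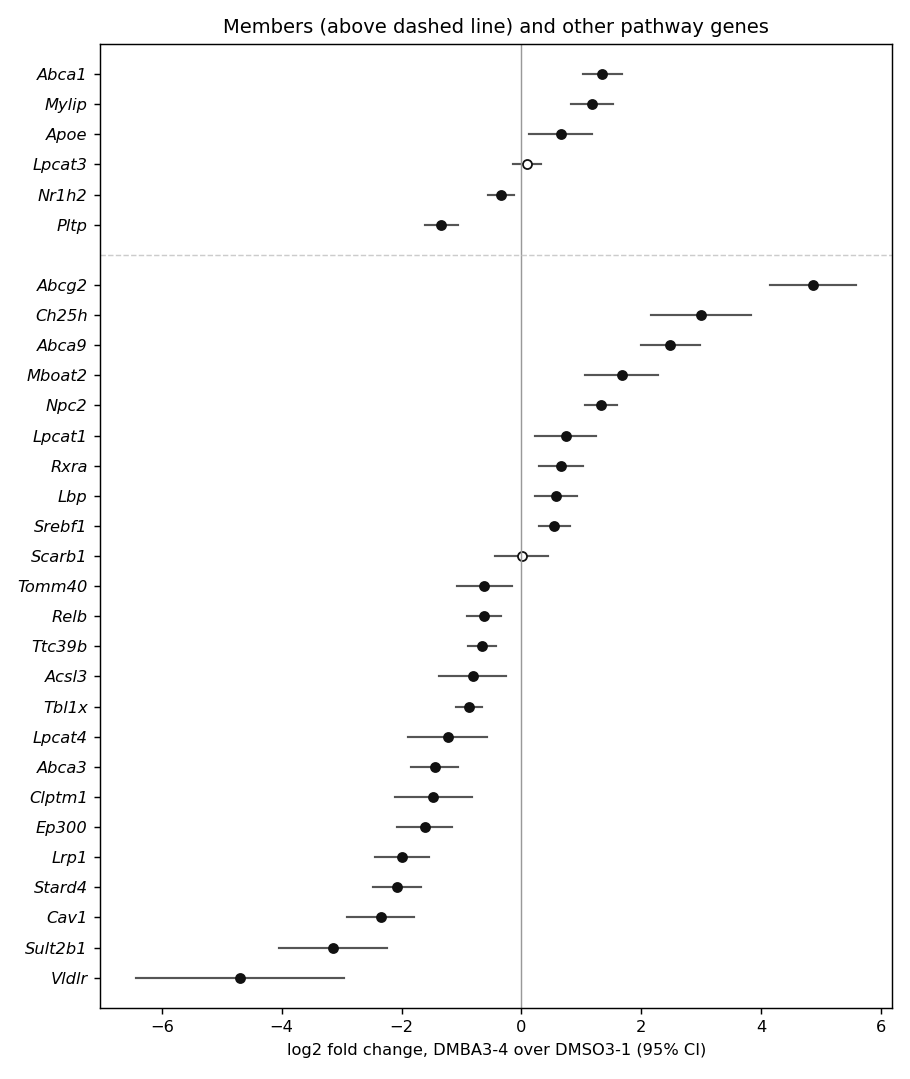
Log2 fold change of DMBA3-4 over DMSO3-1 from edgeR with its 95% confidence interval, for the 6 tested genes of the set (above the dashed line) and the other named pathway genes (below it). Filled points passed an adjusted p of 0.05, and the open points are Lpcat3 (0.10) and Scarb1 (0.01), whose intervals cross 0.

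Set against each other within a group, levels were ordered as CPM per kilobase of merged exon. In DMBA3-4 libraries the order was Nr1h2 (29.1), Lpcat3 (19.8), Mylip (17.8), Apoe (15.4), Pltp (12.9), Abca1 (3.70), Abcg1 (0.460) and Nr1h3 (0.154), with Apoc2 at 0. The libraries did not overlap between Nr1h2 and Lpcat3, between Pltp and Abca1, or between Abca1 and Abcg1, and the other neighbours in the order overlapped. In DMSO3-1 libraries the order was Nr1h2 (36.8), Pltp (32.6), Lpcat3 (18.5), Apoe (9.76), Mylip (7.83), Abca1 (1.45), Nr1h3 (0.224) and Abcg1 (0.0337), with Apoc2 at 0. There Pltp lay above Lpcat3, Mylip above Abca1 and Abca1 above Nr1h3 without overlap. Pltp thus stood in the fifth place in one group and in the second place in the other, and LXRβ was at the head of both orders.

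The level of each gene in the count table was also set beside the authors' mean, which is a single value per gene over their samples, scaled here to a total of 1000000. Apoe stood at 28991 in that mean, the highest of all named genes, against group means of 32.9 and 20.9 CPM in the count table. Abcg1 stood at 255, Abca1 at 224 and Nr1h3 at 8.66, each above its level in the count table. Pltp (129), Nr1h2 (80.5), Lpcat3 (71.7) and Mylip (35.6) differed less between the tables. Apoc2 was at 0.266. The authors' mean carries no value per library, so these levels have no SD, and the tables were scaled separately. Given the opposite shares of macrophage and epithelial markers in the tables, it is not known whether both were made from the same libraries, and the levels are set side by side without a test.

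**Figure D4:**
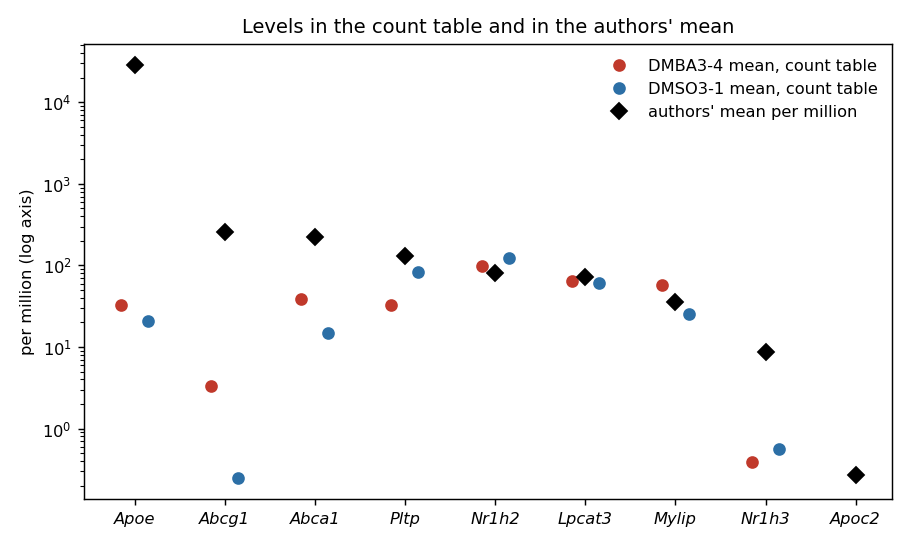
Mean level of each gene in DMBA3-4 (red) and DMSO3-1 (blue) libraries of the count table, in CPM scaled by TMM, and the authors' mean scaled to 1000000 (black), on a log axis on which the 0 of Apoc2 in the count table is not drawn. Apoe is at 28991 in the authors' mean and at 32.9 and 20.9 CPM in the count table, while Nr1h2 and Lpcat3 lie close together.

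Other genes of the pathway were read from the same fit, in which 60.1% of all tested genes were called, 29.9% higher and 30.2% lower. Groups did not overlap for 32.2% of all tested genes. Among 15 RXR partners and coregulators, 14 were tested, 3 were called higher and 8 lower, and their median log2 fold change was -0.42. Rxra, the RXR partner, had 23, 28.4 and 34.1 CPM as lowest, median and highest value in DMBA3-4 and 13.0, 16.5 and 26.1 CPM in DMSO3-1, and was called higher with a log2 fold change of 0.66 (adjusted p 0.00426 in edgeR). Ep300, a histone acetyltransferase, changed by -1.62 and Tbl1x, a subunit of a corepressor complex, by -0.88, with adjusted p from edgeR of 1.3e-05 and 4.0e-06.

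Of 8 enzymes that make or remove sterol ligands of the receptors, 4 were tested, with 2 called in each direction and no overlap between groups for any of the 4. Ch25h, which makes an oxysterol by hydroxylating cholesterol, had 53, 23, 40, 30, 26 and 26 counts in DMBA3-4 replicates 1 to 6 and 5, 2, 5, 3, 5 and 0 counts in DMSO3-1 replicates 1 to 6. Its log2 fold change was 3.0 ± 0.40 (SE, adjusted p 1.3e-05 in edgeR). Sult2b1, which sulfates sterols, fell by 3.14 on the log2 scale (adjusted p 1.7e-05 in edgeR), from 13.1 to 19.5 CPM in DMSO3-1 to 0.489 to 6.16 CPM in DMBA3-4. The gene of the ligand-making hydroxylase thus moved opposite to that of the sulfotransferase.

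Among 22 other LXR targets 11 were tested, of which 2 were called higher, 4 lower and 5 were not called, with a median log2 fold change of -0.32. Srebf1, which encodes the activator of fatty acid synthesis, was at 202 to 291 CPM in DMBA3-4 and 131 to 193 CPM in DMSO3-1 without overlap, a log2 fold change of 0.55 (adjusted p 0.0012 in edgeR). Acsl3, an acyl-CoA synthetase, changed by -0.81 and Ttc39b, which in mice is known to promote degradation of LXR protein, by -0.66 (adjusted p 0.0148 and 1.2e-04 in edgeR). The targets did not all move in the same direction, as was true of all tested genes.

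Transcripts of the lipoprotein receptors were mostly lower in DMBA3-4, with 7 of 9 tested, 1 called higher and 5 lower. The ligase encoded by Mylip acts on receptor protein, which was not measured, and a link to Mylip was not tested. Vldlr, the VLDL receptor, had 0 counts in DMBA3-4 replicates 1 to 4, 30 in replicate 5 and 1 in replicate 6, against 63 to 146 counts in each DMSO3-1 library. Its fitted log2 fold change was -4.70 ± 0.80 (SE, adjusted p 2.8e-04 in edgeR). Lrp1, a large endocytic receptor that binds apolipoprotein E, was at 351 to 764 CPM in DMBA3-4 and 1476 to 2506 CPM in DMSO3-1, a log2 fold change of -1.99 (adjusted p 2.1e-06 in edgeR).

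**Figure D5:**
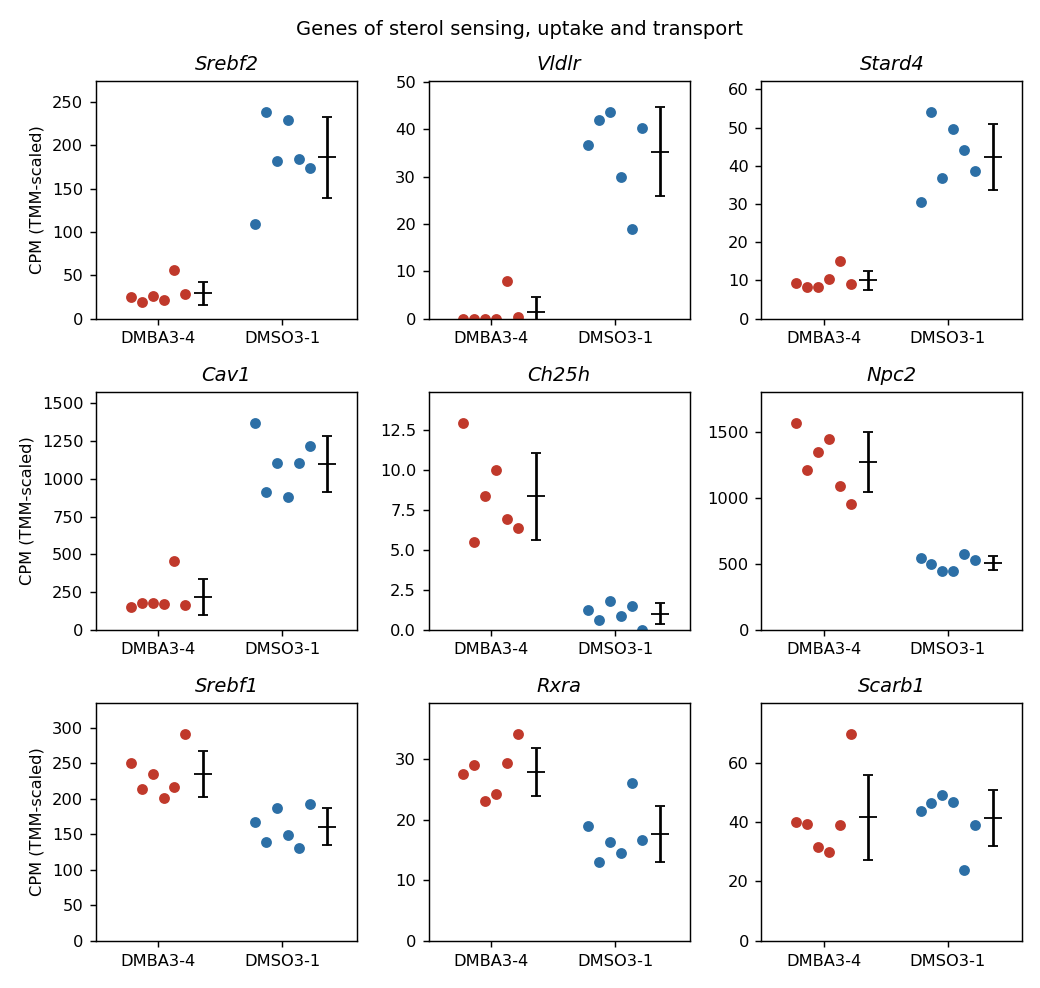
Level of 9 genes of sterol sensing, uptake and transport (CPM scaled by TMM, linear axes from 0) in the 6 DMBA3-4 (red) and 6 DMSO3-1 (blue) libraries in the order of replicates 1 to 6, with the mean and SD in black. Srebf2, Vldlr, Stard4 and Cav1 lie lower and Ch25h, Npc2 and Srebf1 higher in DMBA3-4 without overlap, and Rxra and Scarb1 overlap.

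Srebf2, the gene of SREBP2 and host of miR-33, was chosen after its values were seen and belongs to none of the lists. It was at 24.7, 19.6, 26.4, 21.3, 55.7 and 28.2 CPM in DMBA3-4 replicates 1 to 6 and at 109, 238, 182, 229, 184 and 174 CPM in DMSO3-1 replicates 1 to 6. The groups did not overlap, and the log2 fold change was -2.66 ± 0.25 (SE, adjusted p 7.9e-07 in edgeR). The level of mature miR-33 was not measured. Its gene, Mir33, had 1 count in all libraries together.

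Of 18 genes of cholesterol efflux and transport inside the cell, 14 were tested, 3 were called higher and 5 lower. Npc2, the lysosomal protein that hands cholesterol to the exporter of that compartment, was at 958 to 1567 CPM in DMBA3-4 and 443 to 572 CPM in DMSO3-1, a log2 fold change of 1.33 ± 0.12 (SE, adjusted p 3.9e-07 in edgeR). Cav1, the caveolar protein, changed by -2.35 and Stard4, a cytosolic sterol carrier, by -2.07, neither with overlap (adjusted p 4.5e-06 and 2.9e-07 in edgeR). Scarb1, the scavenger receptor that exchanges cholesterol with high-density lipoprotein, had a log2 fold change of 0.01 with a 95% interval of -0.44 to 0.45 (adjusted p 0.979 in edgeR).

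Among 17 other transporters of the ABCA and ABCG families 9 were tested, with 2 called higher and 4 lower. Abcg2, a transporter known for exporting drugs and porphyrins, had 66 to 106 counts per library in DMBA3-4 and 0 to 4 in DMSO3-1, a fitted log2 fold change of 4.87 ± 0.34 (SE, adjusted p 1.4e-08 in edgeR). Abca9 changed by 2.48, and Abca3, which loads surfactant lipid in the lung, by -1.45 (adjusted p 3.9e-07 and 9.2e-06 in edgeR). Higher levels were thus measured for Abca1 and Abcg1 in families whose tested members were called in both directions.

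Once the group means were taken off, the genes whose levels followed Abca1 most closely over the 12 libraries were Fndc3a, Mbd1 and Tob2, with Pearson r of 0.90, 0.89 and 0.89 among 7362 genes with a mean of at least 20 CPM. Their own log2 fold changes were -0.49, -0.92 and -1.02, opposite in sign to that of Abca1. Within the set, r to Abca1 was 0.46 for Mylip, 0.32 for Pltp, 0.25 for Apoe, -0.01 for Nr1h2 and -0.33 for Lpcat3. These values describe libraries that share their sequencing and scaling, and no p is given.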

How the data were processed

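The authors deposited whole-number counts per gene, not normalized, for 12 libraries, and a table of their own comparison with fold changes, test scores and p-values, of which only the mean normalized count of each gene was used (scale not stated). The submitters' notes name the mouse build GRCm38 (mm10). The aligner and counting program are not given in the sources used here, nor is the use of strand. The labels and the methods differ on the library kit.

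The members and gene lists were chosen with earlier results of these data known. The 19 rows naming no gene (0.0893% to 0.128% of counts) were left out. Genes were filtered with filterByExpr (minimum count 10), scaled by TMM and tested with edgeR 4.0.16 (robust quasi-likelihood, Benjamini-Hochberg adjustment) in R 4.3.3, after a test on simulated data. The permutation test used log2(CPM + 1). Alternatives were DESeq2 1.42.0, limma-voom (limma 3.58.1), other scalings, filters and pseudocounts, a replicate block and leaving out libraries. Named were the 9 members, per list up to 3 called genes with the largest changes, called neighbours of Apoe, the fixed genes Ch25h, Srebf1, Scarb1 and Rxra and the 3 genes most like Abca1. Nr1h3 had too few counts for a likeness. Some genes the rule names are not reported here. Gene models are GENCODE M21. Endothelial and natural killer cell markers took up to 8.8e-04% and 2.9e-04% of counts per library, with none tested.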

Additional observations from a re-analysis of the deposited data

Results flagged for a closer look

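In 10 of 76 sets of 6 libraries 1 library lay far from the others by Dixon's criterion, which chance meets in about 5% of groups. Apoe was at 37.5 CPM in DMSO3-1 replicate 2, where the nearest library of the group was at 20.7 CPM, and the macrophage markers took 0.00985% of counts in that library against 0.00778% in the nearest. A run of genes stood out in DMBA3-4 replicate 5, with levels shifted toward those of the DMSO3-1 group but below every DMSO3-1 library. They were Cav1 at 457 CPM (nearest 179), Stard4 at 15 CPM (10.3), Sult2b1 at 6.16 CPM (1.72) and Vldlr at 8.03 CPM (0.246). In DMBA3-4 replicate 6, Ep300 was at 33.4 CPM (nearest 20.1) and Scarb1 at 69.5 CPM (40.1). In DMSO3-1 replicate 5, Mboat2 was at 2.40 CPM (nearest 12.4) and the natural killer cell markers took 2.9e-04% of counts (5.9e-05%).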

How the results depend on the processing

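Abca1, Mylip and Pltp kept their direction and call in edgeR, DESeq2 or limma-voom under all 22 alternatives run, with log2 fold changes of 1.24 to 1.6, 1.09 to 1.37 and -1.40 to -1.19, and Lpcat3 was called in none (0.06 to 0.18). Abcg1, below the filter, had log2 fold changes of 3.73 in DESeq2 and 3.58 in edgeR without the filter (adjusted p 6.4e-05 and 3.0e-07). Nr1h2 lost its call in 3, so that 1 member was called lower with upper-quartile scaling (log2 fold change -0.26), library totals (-0.28) or no filter (-0.29). Apoe lost its call in 7, the lowest value being 0.49 without DMSO3-1 replicates 1 and 6 (adjusted p 0.104 in edgeR). That setting and the one without DMSO3-1 replicates 2 to 5 were chosen after seeing the data, and the latter called 4605 genes, 2294 of them lower, with fewer libraries. Leaving out 1 library at a time gave 6490 to 7140 genes and 4 to 5 members called. The median log2 fold change of all genes was -0.25 in DESeq2 and -0.13 without the filter, where 33387 genes entered in place of 11511, and 0.00 (-0.0037) with RLE size factors on the 11511, while Abca1 (1.36) and Pltp (-1.33) in DESeq2 stayed near their edgeR values. Replicate numbers did not pair the libraries (correlations of same-numbered deviations from -0.16 to 0.13), and a fit with the number as a block called 6480 genes and 5 members. Depth limits Nr1h3, Apoc2 and the DMSO3-1 level of Abcg1.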
